A study of Homo sapiens with 14 samples.

Results

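The genes described here are 28 genes of cholesterol and fatty acid synthesis, listed by name with earlier results of these data known. They were 7 of the mevalonate route and 11 from squalene to cholesterol. A further 6 control the pathway or carry sterol in the cell, and 4 serve fatty acid synthesis. Of the 28 genes, 26 could be read by a probe set with a single gene symbol. Of those, 25 passed the filter on low values, among 10349 genes tested. The cells were HEK293, an established human embryonic kidney line, grown in medium with serum. They were transfected with a vector for HA-tagged HOXD9 or V5-tagged HOXD13, 2 HOX transcription factors, and kept under G418. Each HOX gene had 4 lines: the pool of resistant cells, called mix, and clones a, b and c taken from that pool. The controls were 3 samples of cells with the empty vector of the same tag, so all 14 arrays come from transfected HEK293 cells and the clones of a factor share their parent pool. The sample titles name G418 selection only for HA vector replicates 2 and 3. The promoter that drove each tagged gene is not given in the sources used here. Expression was read on 1 Affymetrix array a sample and deposited as log2 values, so a difference of 1 is a doubling.

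Cells build cholesterol from acetyl-CoA by way of mevalonate, isoprenoid diphosphates and squalene, and a chain of enzymes then turns lanosterol into cholesterol. The same acetyl-CoA feeds fatty acid synthesis. Both arms are controlled by the SREBP transcription factors, which are made as membrane proteins, carried by SCAP from the endoplasmic reticulum to the Golgi for cleavage, and held back by the INSIG proteins when sterol is plentiful. Growing cell lines depend on this route for membrane and for the isoprenoids attached to proteins.

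The HA arrays and the V5 arrays were normalized separately, so levels were compared only within a tag. Of the targeted genes, HOXD9 had a mean of 2.73 on the HA vector arrays and 6.99 in the HOXD9 lines by 1 probe set, while its other probe set read 4.22 and 4.40. HOXD13 was higher in the HOXD13 lines by the mean of each of its 3 probe sets; 1 of them read 6.93 on the V5 vector arrays and 12.43 in the lines. Vector replicates lay close together (median SD of a member 0.04 for HA and 0.05 for V5), whereas the lines of a factor spread more widely (0.27 for HOXD9 and 0.21 for HOXD13). In both sets 1 clone stood apart. HOXD9 clone c had the largest shift of the 4 lines for 64.7% of all genes tested, and HOXD13 clone c had the lowest value of its 4 lines for 49.6%. The difference between the 3′ and 5′ control probes of ACTB, a reading of RNA length, was 2.80 in HOXD13 clone c, 2.19 to 2.26 on the V5 vector arrays and 1.82 to 2.13 in the other HOXD13 lines. In the HOXD9 set it was 2.29 to 2.37 on the vector arrays, 1.70 in clone a and 2.10 to 2.35 in the other lines. Of 10 genes listed as marking HEK293 cells, 6 were tested (KRT8, KRT18, CDH2, VIM, NEFL and INA) and 4 were under the filter (NEFM, PAX2, LHX1 and STMN2). No leukocyte, endothelial or hepatocyte marker that could be read passed the filter, and COL1A1 and SFN were the only fibroblast and squamous markers that did. The summed level of the HEK293 markers was 14.32 to 14.35 on the HA vector arrays, 14.27 to 14.46 in the HOXD9 lines, 14.73 to 14.75 on the V5 vector arrays and 14.34 to 14.91 in the HOXD13 lines. Since these are bulk samples, fewer cells of a kind and less RNA a cell cannot be told apart.

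In the HOXD13 lines 2 enzymes of the mevalonate route fell: PMVK, phosphomevalonate kinase, was 1.46-fold lower and FDPS, farnesyl diphosphate synthase, was 1.29-fold lower than in the V5 vector cells. No member was called higher. By mean, 13 of the 25 members lay above the V5 vector cells and 12 below. SC5D and DHCR7 were above by 0.55 and 0.85 without passing (limma adjusted p = 0.115 and 0.145). The 2 called of 25 compare with a background of 10.6% of all genes tested, 7.76% lower and 2.88% higher. Calls in this comparison were made by limma with Benjamini-Hochberg adjustment over all genes tested at an adjusted p under 0.05. In the HOXD9 lines no member passed, beside a background of 0.00966% (1 gene). At an unadjusted p under 0.05, 6 of 25 members met the limit for HOXD9 beside 23.5% of all genes, and 7 of 25 for HOXD13 beside 27%. The number of members called for HOXD13 was 0 without V5 vector 1 or 3, where 3.48% and 2.93% of all genes were called. It was 1 (PMVK) without any HA vector array, V5 vector 2, HOXD9 mix or HOXD13 mix, a or b, where 3.3% to 8.85% were. It was 4 without HOXD9 clone c, where 17.4% of all genes were called, and 10 without HOXD13 clone c, where 35.8% were. For HOXD9 it was 4 without HOXD9 clone b (8.5% of all genes) and 5 without HOXD13 clone c (10.6%), which enters through the shared estimate of spread. The median effect over the members was 0.17 for HOXD9, with 0.08 over all genes, and 0.01 for HOXD13, with -0.03 over all genes. With 1 array left out the member median ranged from 0.051 (without HOXD9 clone c) to 0.22 for HOXD9, and from -0.027 (without HOXD13 clone a) to 0.096 (without HOXD13 clone c) for HOXD13.

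**Figure D1:**
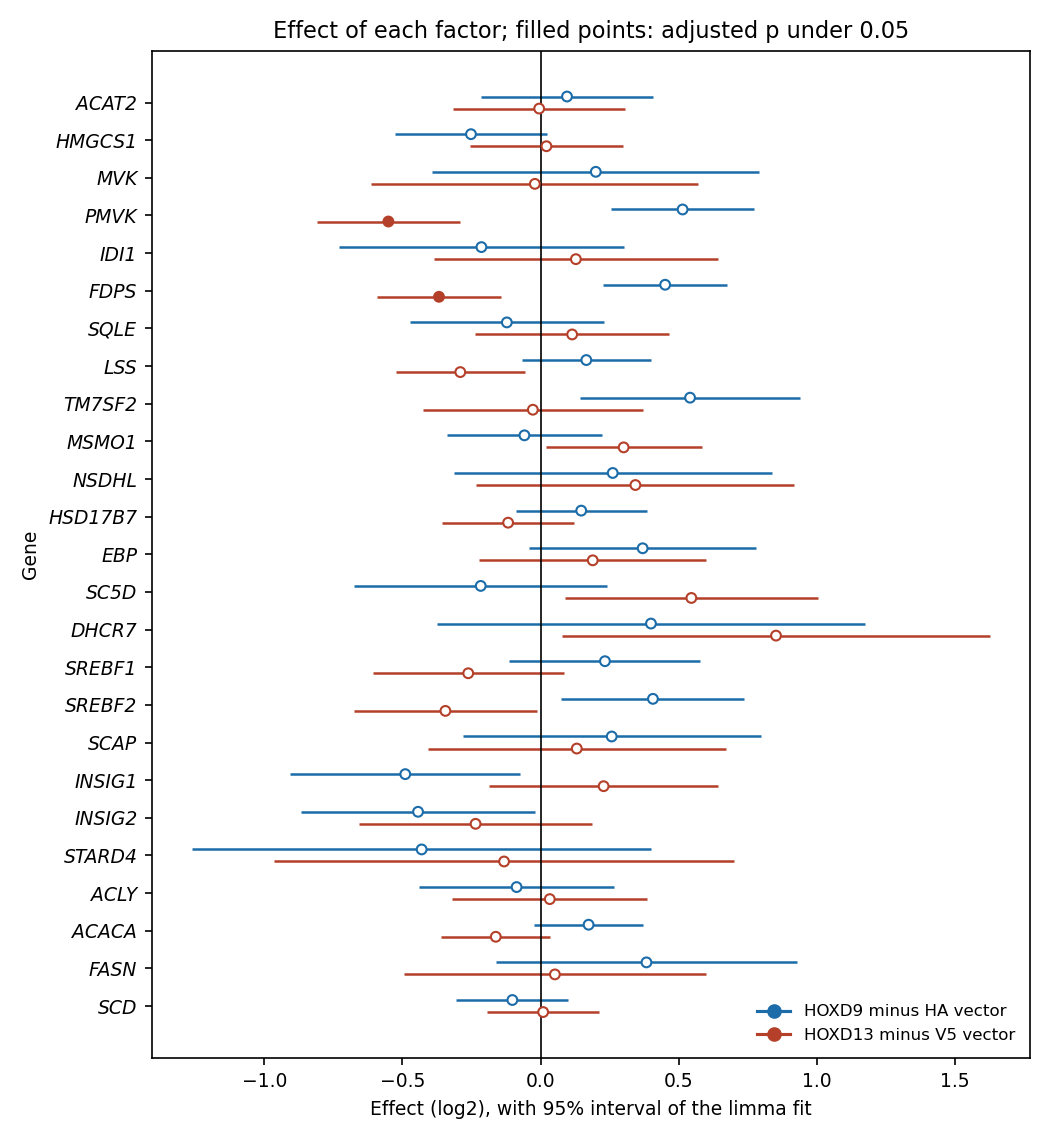
Mean log2 difference of the HOX lines from the vector arrays of their own tag for the 25 tested members, in pathway order, with 95% confidence intervals from limma (4 lines against 3 arrays in each set); filled points passed the test. PMVK and FDPS lie above 0 for HOXD9 and below 0 for HOXD13, and the intervals of DHCR7 are among the widest.

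The promoters of 4 members on which the results turn are shown here: PMVK and FDPS, the genes that fell with HOXD13; DHCR7, the member that varied most among the HOXD13 lines; and SREBF2, which codes for the SREBP protein best known for sterol synthesis. Each is the 250 bases before the RefSeq gene start (GRCh38.p14), written 5′ to 3′ on the strand of the gene, at chr1:154936720-154936969 on the minus strand for PMVK, chr1:155308616-155308865 on the plus strand for FDPS, chr11:71448394-71448643 on the minus strand for DHCR7 (1 of 2 windows of this gene) and chr22:41832855-41833104 on the plus strand for SREBF2. Capitals mark, on either strand, the sterol regulatory element TCACNCCAC, the CCAAT box and the GC box GGGCGG, the last pair being the motifs of NF-Y and SP1, known partners of the SREBPs.
PMVK: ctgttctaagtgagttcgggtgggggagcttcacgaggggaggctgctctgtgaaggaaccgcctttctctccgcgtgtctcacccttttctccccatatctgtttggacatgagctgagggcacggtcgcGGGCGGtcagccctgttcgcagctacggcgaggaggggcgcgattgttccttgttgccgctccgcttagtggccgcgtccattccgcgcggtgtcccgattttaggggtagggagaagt
FDPS: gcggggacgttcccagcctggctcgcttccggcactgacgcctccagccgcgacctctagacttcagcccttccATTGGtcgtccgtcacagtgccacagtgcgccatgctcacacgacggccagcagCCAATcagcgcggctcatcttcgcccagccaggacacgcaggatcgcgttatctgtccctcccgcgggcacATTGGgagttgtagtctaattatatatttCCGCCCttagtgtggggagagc
DHCR7: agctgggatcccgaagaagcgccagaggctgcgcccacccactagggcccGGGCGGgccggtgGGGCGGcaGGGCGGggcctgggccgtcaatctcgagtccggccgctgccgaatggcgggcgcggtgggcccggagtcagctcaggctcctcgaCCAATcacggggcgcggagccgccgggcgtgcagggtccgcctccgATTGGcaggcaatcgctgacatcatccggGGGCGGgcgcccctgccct
SREBF2: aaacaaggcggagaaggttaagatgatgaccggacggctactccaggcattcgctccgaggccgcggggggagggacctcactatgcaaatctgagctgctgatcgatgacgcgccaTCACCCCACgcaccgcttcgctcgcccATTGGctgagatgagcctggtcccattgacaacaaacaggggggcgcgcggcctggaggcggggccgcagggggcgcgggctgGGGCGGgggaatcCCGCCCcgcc

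The PMVK window held 1 GC box and no CCAAT box, FDPS held 3 CCAAT boxes and 1 GC box, and DHCR7 held 2 CCAAT boxes and 4 GC boxes. DHCR7 has 2 windows, and the window shown was taken because it had the most CCAAT and GC boxes. The other DHCR7 window matched none of the motifs searched. SREBF2 held 1 sterol regulatory element, 1 CCAAT box and 2 GC boxes. Windows were found for 24 of the 28 members, 33 windows in all. A CCAAT box was in 23 of the 33 (69.7%), beside 33.4% of 12726 windows of tested genes, and a GC box was in 30 (90.9%), beside 64.4%. The sterol regulatory element was in 1 window (3.03%, beside 0.817%), that of SREBF2. The E box CACGTG was in 4 windows, of INSIG1, SC5D and SCAP (12.1%, beside 8.58%), and the HOX motif CAATAAA was in 2, of MVK and NSDHL (6.06%, beside 2.2%). All motifs were searched on both strands. In MVK and NSDHL the HOX motif shares bases with a CCAAT box. A match says only that the letters are there. PMVK and FDPS, which moved together, had no motif in common here other than the GC box.

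PMVK makes mevalonate diphosphate from phosphomevalonate. Its log2 values were 9.73, 9.62 and 9.74 on the V5 vector arrays and 9.28, 9.11, 9.23 and 8.96 in HOXD13 mix, a, b and c. Every HOXD13 line lay below every V5 vector array. The group means were 9.15 ± 0.14 (SD, n = 4) and 9.70 ± 0.06 (SD, n = 3), a difference of -0.55 (SE 0.12, limma adjusted p = 0.0134). In the HOXD9 set the vector arrays read 9.13, 9.14 and 9.14 and the lines 9.49, 9.82, 9.45 and 9.84 in the same order. All HOXD9 lines were above the HA vector arrays, by 0.51 on average (SE 0.12), but the limma adjusted p was 0.147.

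FDPS joins isoprenoid units into farnesyl diphosphate, the branch point to sterols and protein prenylation, and is the target of bisphosphonate drugs. It read 11.03, 10.96 and 11.04 on the V5 vector arrays and 10.65, 10.63, 10.67 and 10.62 in the HOXD13 lines. The HOXD13 lines were within 0.05 of each other and all were below the vector cells, by 0.37 on average (difference -0.37, SE 0.10, limma adjusted p = 0.0404). On the HA side the vector arrays read 10.37, 10.26 and 10.37 and the HOXD9 lines 10.71, 10.95, 10.55 and 10.92. There too the groups did not overlap, with the lines above the vector cells by 0.45 (SE 0.10, limma adjusted p = 0.147). The call of FDPS was near the limit: with each array centred on its median its adjusted p was 0.0613, and it missed the limit when any vector array of either tag, HOXD9 mix or HOXD13 mix, a or b was left out (10 of the 14 arrays, adjusted p up to 0.15). When 1 array was left out at a time, PMVK missed it without V5 vector replicate 1 or 3 (adjusted p up to 0.0707).

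Whether the factors differed was tested as the HOXD13 effect minus the HOXD9 effect, each within its tag. Each factor came with its own tag, so factor and tag set cannot be told apart. PMVK differed by -1.06 (SE 0.17, 95% interval -1.43 to -0.70, limma adjusted p = 0.00358) and FDPS by -0.82 (SE 0.15, interval -1.14 to -0.50, adjusted p = 0.00631). SREBF2 differed by -0.75 (SE 0.22, adjusted p = 0.0455), a call that was lost when any of 11 of the 14 arrays was left out (all but HOXD9 clone b and HOXD13 clones b and c; adjusted p up to 0.114) and with arrays centred on their medians, with no filter or with a trended, robust prior (adjusted p = 0.0568, 0.0837 and 0.0547). These 3 of 25 compare with a background of 9.63% of all genes, 8.12% lower and 1.52% higher. The same 3 were the members whose HOXD9 lines all lay above and HOXD13 lines all below their vector arrays, a pattern that 5.82% of all genes had.

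**Figure D2:**
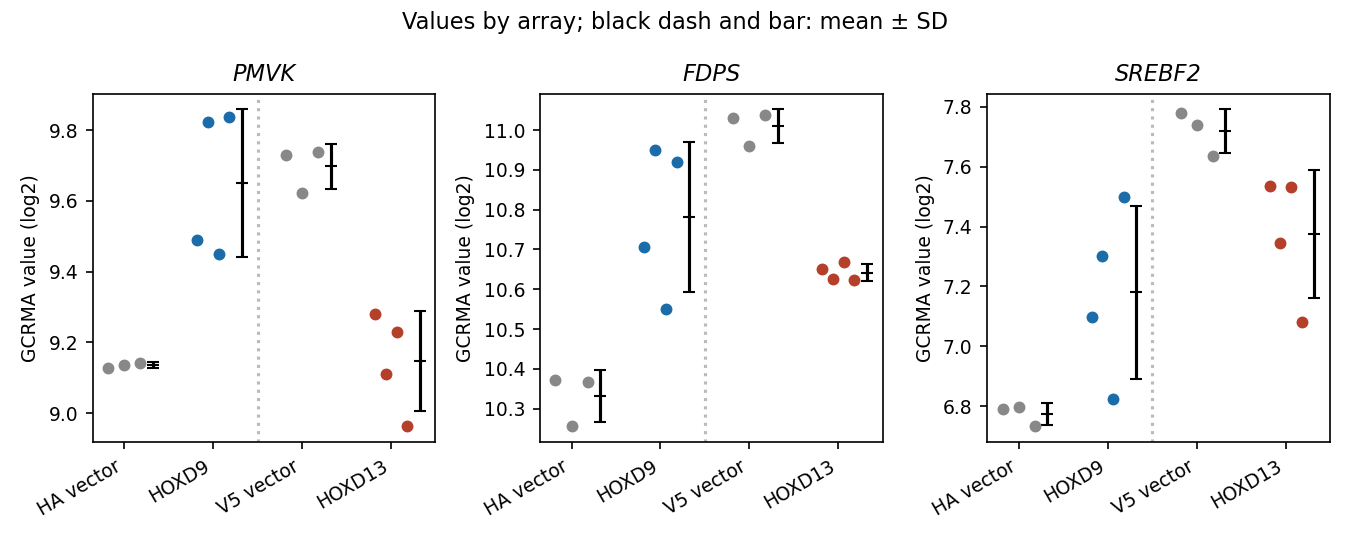
Log2 value of PMVK, FDPS and SREBF2 on each of the 14 arrays, by group, with points for single arrays and a dash and bar for the group mean ± SD. In each gene the HOXD9 lines lie above the HA vector arrays and the HOXD13 lines below the V5 vector arrays; levels are not comparable between the tags.

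PMVK and FDPS lie on chromosome 1, and 16 tested genes lie between them in the RefSeq gene order. In the HOXD9 lines all 16 of these genes had means above the HA vector cells, from 0.13 to 0.71 with a median of 0.38. In 10 of the 16 all HOXD9 lines lay above all vector arrays. Over all genes tested 58.7% had HOXD9 means above 0, and 22.4% had all HOXD9 lines above all vector arrays. None of the 16 was called for HOXD9, beside 0.00966% of all genes. In the HOXD13 lines 11 of the 16 were above 0 and 5 below, from -0.16 to 0.43. Over all genes 4735 were above 0 and 5614 below. For HOXD13 none of the 16 was called, beside 10.6% of all genes. None had all HOXD13 lines below the vector arrays, beside 20.3%.

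**Figure D3:**
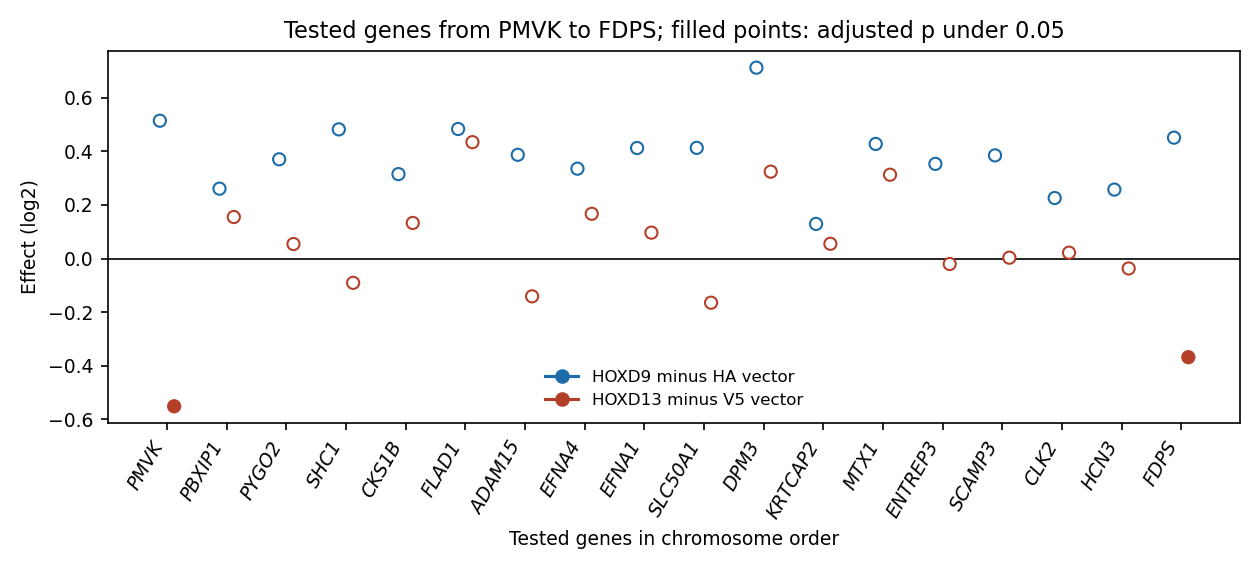
Mean log2 difference of the HOX lines from the vector arrays of their tag for PMVK, FDPS and the 16 tested genes between them on chromosome 1, in gene order, filled where the limma adjusted p was under 0.05. All HOXD9 points are above 0, while among the HOXD13 points PMVK and FDPS at the ends are the lowest.

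The other mevalonate genes did not pass in either set. HMGCS1, which makes HMG-CoA, differed by 0.02 in the HOXD13 lines, whose values of 8.82, 8.90, 8.82 and 8.65 overlapped the 8.79, 8.73 and 8.81 of the V5 vector arrays. In the HOXD9 lines it read 7.81, 7.50, 7.87 and 7.32 beside 7.87, 7.93 and 7.85, a difference of -0.25 (SE 0.13, limma adjusted p = 0.237). The low values came from clones a and c. ACAT2, MVK and IDI1 had effects of 0.10, 0.20 and -0.21 for HOXD9, and their HOXD13 effects were between -0.02 and 0.13. IDI1, the isomerase that makes dimethylallyl diphosphate, read 7.49 in HOXD9 clone c and 8.11 to 8.81 in the other HOXD9 lines; its probe set, like that of HSD17B7, is of a kind that can bind related transcripts. MVD was at the floor on all arrays, 2.32 to 2.39, and was not tested. CYP51A1 was not read because both of its probe sets carry another symbol as well, and FDFT1 was not analysed here.

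Between squalene and cholesterol no member passed in either comparison, but the HOXD13 lines differed among themselves in several of these genes. DHCR7, which makes cholesterol from 7-dehydrocholesterol, read 7.87, 7.90 and 7.93 on the V5 vector arrays. HOXD13 mix, a and b read 9.002, 9.17 and 9.43, and clone c read 7.41. Thus 3 lines were at least 1.10 above the vector mean and clone c was 0.49 below it, and the mean difference of 0.85 (SE 0.36) had a limma adjusted p of 0.145. A further DHCR7 probe set gave shifts of 1.11, 1.53, 1.78 and -0.59.

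EBP, the sterol isomerase, split the same way, with 10.47, 10.59 and 10.73 in mix, a and b, 9.76 in clone c and 10.14 to 10.25 on the vector arrays. SC5D, the sterol desaturase just before DHCR7, was the only member whose HOXD13 lines were all above the vector arrays (8.59% of all genes): 11.37, 11.61, 11.53 and 11.08 beside 10.87, 10.88 and 10.81. Its difference was 0.55 (SE 0.21, limma adjusted p = 0.115). MSMO1, a sterol demethylating oxidase, was 0.30 higher (SE 0.13, adjusted p = 0.158). LSS, which closes the sterol ring, went the other way, with 8.42, 8.46, 8.55 and 8.47 beside 8.71, 8.85 and 8.73, a difference of -0.29 (SE 0.11, adjusted p = 0.104). NSDHL, a sterol dehydrogenase, had shifts of 0.26, 0.66, 0.91 and -0.45 in the 4 lines, and a further probe set of it gave 1.29, 1.62, 1.73 and -0.25.

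In all, 10 of 25 members had mix, a and b above all V5 vector arrays and clone c below them: HMGCS1, MVK, SQLE, TM7SF2, NSDHL, EBP, DHCR7, SCAP, FASN and SCD. Over all genes tested 20.4% did so. The reverse was true of INSIG2 and STARD4 (12.5% of all genes). Without clone c, an alternative chosen after seeing the data, 10 of 25 members passed in HOXD13 against V5 vector, beside a background of 35.8% (18.9% higher, 16.8% lower). The 7 that rose were DHCR7 by 1.30 (2.46-fold, limma adjusted p = 5.70e-05), SC5D by 0.65, NSDHL by 0.61, SCAP by 0.41, EBP and MSMO1 by 0.40 each and SQLE, squalene epoxidase, by 0.29. PMVK, FDPS and INSIG2 fell, by 0.49, 0.36 and 0.43. Of the 9 tested genes from squalene to cholesterol, 6 were called higher and none was called lower. Among those not called, TM7SF2 differed by 0.16, HSD17B7 by -0.16 and LSS by -0.29 (limma adjusted p = 0.354, 0.273 and 0.0596). The ACTB difference of clone c, given above, moves with this split, and its part in the result was not tested; with that difference as a covariate over all 14 arrays, DHCR7 and SREBF2 passed for HOXD13 in addition to PMVK and FDPS.

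**Figure D4:**
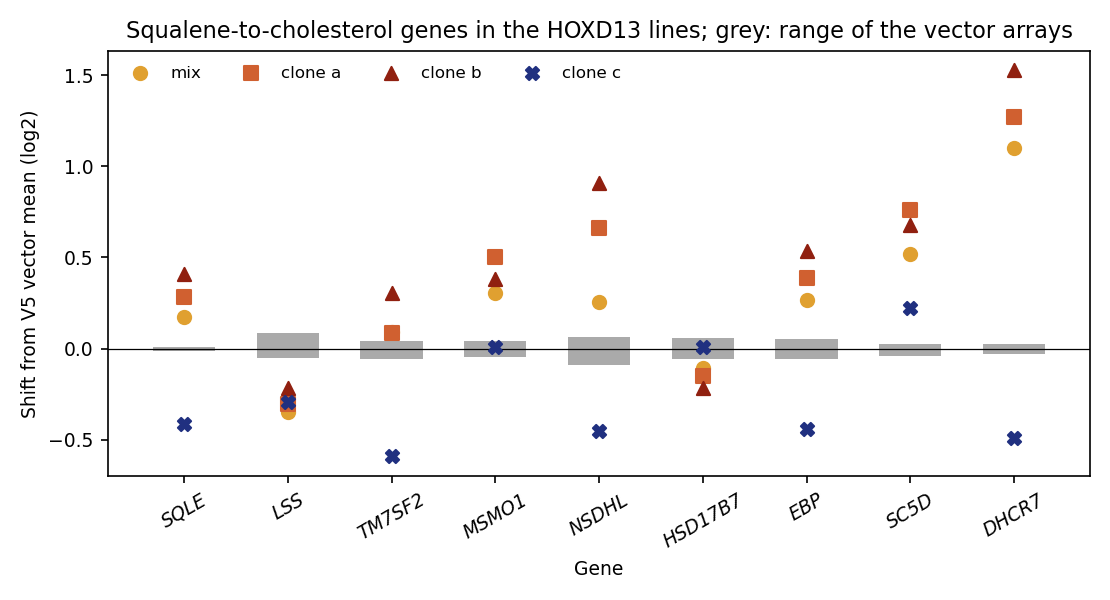
Shift of each HOXD13 line from the mean of the 3 V5 vector arrays (log2) for the 9 tested members from squalene to cholesterol, 1 array a line; grey boxes span the vector arrays. Clone c is below the other 3 lines for most of these genes, and the gap is widest for DHCR7.

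In the HOXD9 lines 6 of these 9 genes had means above the vector cells, where 58.7% of all genes did, and none passed. TM7SF2, a sterol reductase, read 5.33, 5.54, 5.42 and 5.82 beside 5.07, 4.83 and 5.06 (difference 0.54, SE 0.18, limma adjusted p = 0.151). DHCR7 read 7.78, 8.07, 7.52 and 8.14 beside 7.47, 7.51 and 7.46, a difference of 0.40 (SE 0.36, adjusted p = 0.458), and EBP differed by 0.37 (SE 0.19, adjusted p = 0.244). For these 3 genes no HOXD9 line overlapped the vector arrays, although clone b of DHCR7 was only 0.04 above the mean. SC5D was near the vector level in mix, a and b (10.04, 10.17 and 10.26 beside 10.11 to 10.16) and low in clone c, at 9.20. NSDHL had HOXD9 shifts of 0.22, 0.21, -0.12 and 0.74 in mix, a, b and c by the probe set read. A further NSDHL probe set gave 0.63, 0.97, 0.53 and 1.10. All told, 7 members had all HOXD9 lines above all HA vector arrays (PMVK, FDPS, TM7SF2, EBP, DHCR7, SREBF2 and SCAP), where the background is 22.4%, and 2 had them all below (INSIG2 and SCD, background 14.1%).

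Among the genes of control, SREBF2 read 6.79, 6.80 and 6.73 on the HA vector arrays and 7.10, 7.30, 6.82 and 7.50 in the HOXD9 lines (difference 0.41, SE 0.15, limma adjusted p = 0.164). With V5 it read 7.78, 7.74 and 7.64 in vector cells and 7.54, 7.35, 7.53 and 7.08 in the HOXD13 lines (difference -0.34, SE 0.15, adjusted p = 0.169). Neither passed alone, while their difference did, as given above. SREBF1, whose products are best known for fatty acid synthesis, was near the filter, at 5.01 to 5.61 in the HOXD9 lines and 4.87 to 5.31 in the HOXD13 lines, with effects of 0.23 and -0.26 (adjusted p = 0.348 and 0.317).

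SCAP, the escort of the SREBPs, had shifts of 0.21, 0.44, 0.59 and -0.71 in the HOXD13 lines (mean 0.13, limma adjusted p = 0.79) and of 0.16, 0.19, 0.01 and 0.67 in the HOXD9 lines (mean 0.26, adjusted p = 0.489). INSIG1 and INSIG2 retain the SCAP complex, and INSIG1 is itself a textbook SREBP target. INSIG1 read 9.81, 9.18, 9.92 and 9.03 in the HOXD9 lines beside 10.04, 9.90 and 9.97 (difference -0.49, SE 0.19, adjusted p = 0.169), with clones a and c low. Other INSIG1 probe sets gave HOXD9 means of -0.30 and -0.11. By these, clone a was at -0.27 and 0.41, mix at -0.29 and -0.39 and clone c at -0.74 and -0.24. In the HOXD13 lines INSIG1 differed by 0.23 (adjusted p = 0.486).

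INSIG2 read 7.22, 7.20, 7.25 and 6.68 in the HOXD9 lines beside 7.42, 7.64 and 7.53 (difference -0.44, SE 0.20, limma adjusted p = 0.198). In HOXD13 cells it was 8.19, 8.03, 7.99 and 8.85 beside 8.50, 8.51 and 8.50 (difference -0.24, adjusted p = 0.478), so that clone c alone lay above. STARD4, a sterol carrier, was the most scattered control gene: 8.002, 7.64, 7.32 and 8.91 in the HOXD13 lines beside 8.03 to 8.18, and 6.72, 7.06, 7.18 and 5.51 in the HOXD9 lines beside 6.95 to 7.17. It was lowest in HOXD9 clone c and highest in HOXD13 clone c.

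None of the 4 genes of fatty acid synthesis passed. ACACA, acetyl-CoA carboxylase, read 9.43, 9.40, 9.46 and 9.42 in the HOXD13 lines beside 9.58, 9.58 and 9.61, a difference of -0.16 that had no overlap between groups and a limma adjusted p of 0.275; a further ACACA probe set gave 0.34. In the HOXD9 lines ACACA differed by 0.17 (adjusted p = 0.249). ACLY, which makes cytosolic acetyl-CoA, had means of -0.09 and 0.03, with a low 10.90 in HOXD9 clone a that its other probe sets did not show. FASN, fatty acid synthase, was 0.91 above the vector mean in HOXD9 clone c and 0.74 below it in HOXD13 clone c, with the other lines 0.12 to 0.40 above. SCD, which makes oleate from stearate, had means of -0.10 and 0.01 and was within 0.21 of the vector mean in every line. A further, dimmer SCD probe set gave shifts of 0.44, 0.50, 0.66 and -0.83 in HOXD13 mix, a, b and c, and of 0.41 and 0.47 in HOXD9 clones a and c. In all, 5 members had all HOXD13 lines below all V5 vector arrays (PMVK, FDPS, LSS, SREBF2 and ACACA), beside 20.3% of all genes.

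Taken line by line, shifts of at least 0.5 gathered in a few lines. HOXD9 mix and clone b had no member that far from the vector mean, in either direction, as had few genes at all (2.07% above and 1.25% below in mix, 1.92% and 0.3% in clone b). HOXD9 clone a had 6 members above and 2 below (12.9% and 16.2% of all genes), and clone c had 10 above and 6 below (29.9% and 23.5%). In HOXD13 mix had 2 above and none below (11.2% and 10.7%), clone a 4 and 1 (15.4% and 14.8%), clone b 5 and 2 (18% and 17.9%) and clone c 1 and 7 (10.1% and 16.1%). The median member shift was 0.06, 0.16, 0.03 and 0.41 in HOXD9 lines mix, a, b and c, beside 0.04, 0.11, 0.00 and 0.20 over all genes. For HOXD13 it was 0.05, 0.12, 0.16 and -0.35, beside -0.02, -0.04, -0.04 and -0.13. HOXD13 clone c was the lowest of its 4 lines for 18 of 25 members, beside 49.6% of all genes. HOXD9 clone c had the largest shift for 20 of 25, beside 64.7%.

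**Figure D5:**
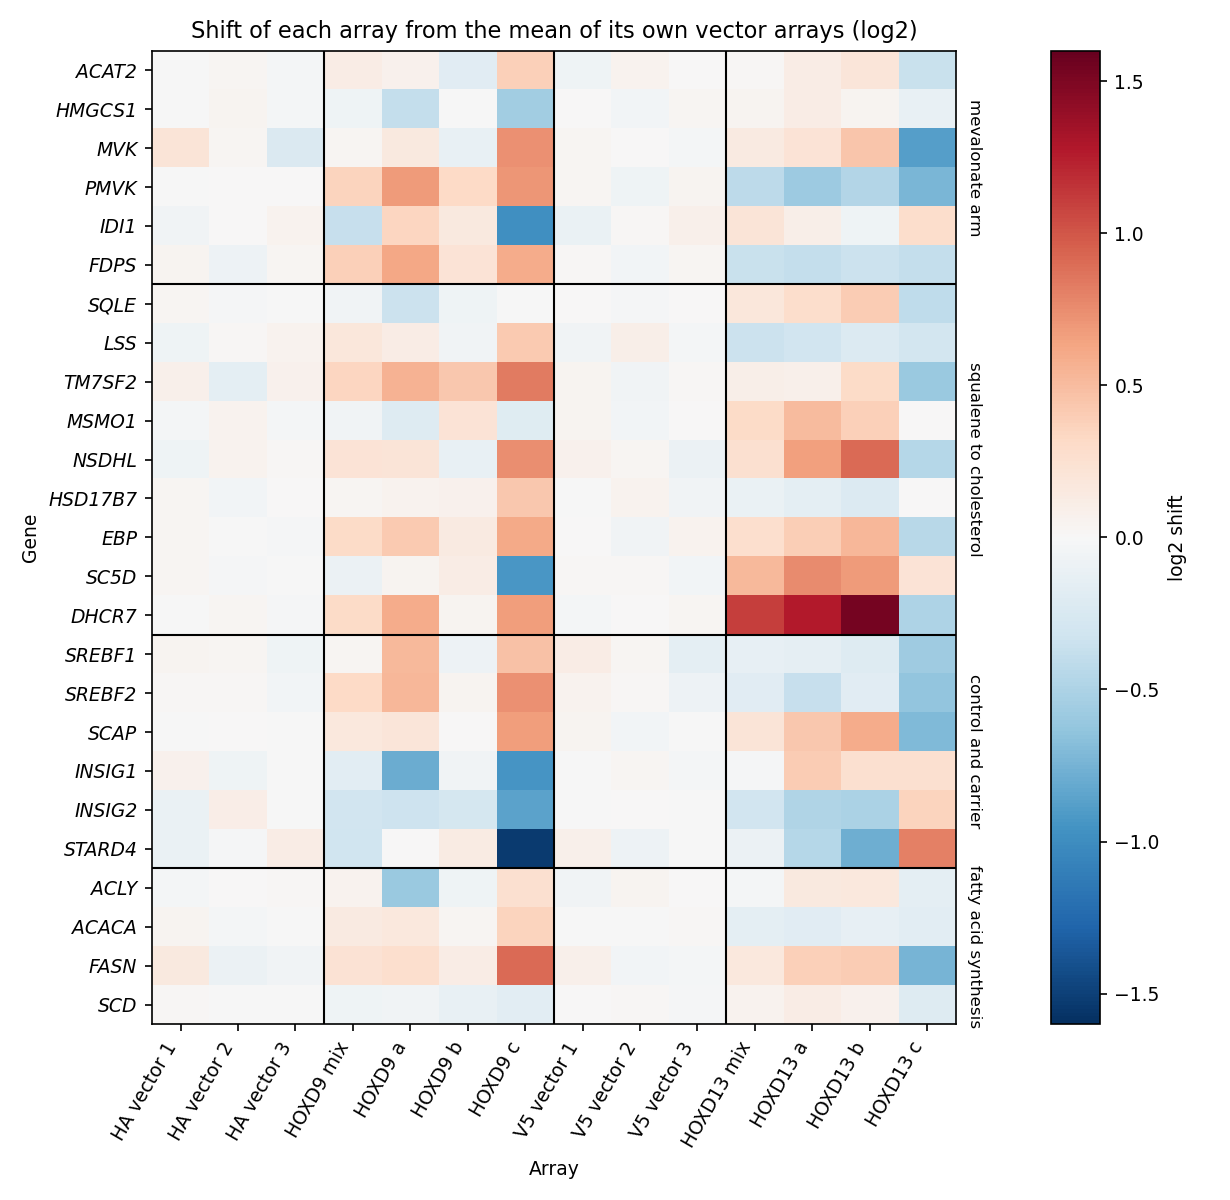
Colour map of the log2 shift of each of the 14 arrays from the vector mean of its tag for the 25 tested members, in pathway order, red for above and blue for below. PMVK and FDPS are red in all HOXD9 lines and blue in all HOXD13 lines; the strongest colours are DHCR7 in HOXD13 mix, a and b and STARD4 in HOXD9 clone c.

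Genes next to these pathways were taken from 3 further lists, of which 44 of 54 genes were tested. None passed for HOXD9. For HOXD13, 2 of 18 genes of fatty acid elongation, activation and supply were called lower. Of 18 genes of sterol traffic, 1 was called higher. In the isoprenoid branch 0 of 8 passed (1 at an unadjusted p under 0.05). Of all genes tested 10.6% were called. SLC25A1, the mitochondrial carrier that exports the citrate used by ACLY, read 8.53, 8.51, 8.67 and 8.30 in the HOXD13 lines beside 9.11, 9.04 and 9.11, a difference of -0.58 (limma adjusted p = 0.0273). ME1, malic enzyme, a source of NADPH, read 9.52, 9.48, 9.42 and 9.96 beside 10.10, 10.08 and 10.07 (-0.49, adjusted p = 0.0293). MYLIP, a ubiquitin ligase that acts on lipoprotein receptors and a target of LXR, read 8.54, 8.78, 9.02 and 7.93 beside 7.88, 7.79 and 7.66 (0.79, adjusted p = 0.0224). No line overlapped the vector arrays in these 3 genes, and clone c was the nearest to them in ME1 and MYLIP. SLC25A1 and FADS2, a fatty acid desaturase, also passed the test of the difference between the factors, both lower for HOXD13. So did NR1H3, which codes for an LXR, in the same direction. By list, in the order above, 2 of 18, 1 of 18 and 0 of 8 genes passed that test. Of all genes tested 9.63% did, 8.12% lower.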

How the data were processed

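The authors deposited log2 values of 54675 probe sets on 14 Affymetrix arrays, made with GCRMA per the submitters' processing notes; its version is not given in the sources used here. Sorted values differed by at most 0.00102 among the HA arrays and 0.00195 among the V5 arrays, but differed between tags (75th percentile 6.27 and 7.02), so each tag set had been normalized on its own. Symbols came from the platform annotation, updated by gene ID through RefSeq (GRCh38.p14; 41043 of 41097 single-symbol probe sets matched). A probe set entered the test at log2 5 or more on at least 3 arrays, and a gene was read by its single-symbol probe set of highest mean. Group means were fitted with limma 3.58.1 (lmFit, eBayes) in R 4.3.3 over all 14 arrays, two-sided, with Benjamini-Hochberg adjustment over 10349 genes and calls at 0.05. The code was tested on simulated data. Members and lists were chosen with earlier results of these data known. Named in full are members called in either comparison, topped up by smallest p to 8 a comparison, the genes of SREBP control and the called related genes; members described beyond these were chosen after their values were seen. Alternatives were another filter, probe set reading, centring, array weights, prior, tag-wise fits, an ACTB covariate, a block by label and leaving out each array. Vector samples are labelled biological replicates, and a factor's clones share a parent pool; a p-value covers no more than the spread among these arrays. The number of arrays limits the precision.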

Additional observations from a re-analysis of the deposited data

Results flagged for a closer look

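Samples far from the rest of their group were sought in the HOXD9 and HOXD13 lines for each of 25 members, by the gap of the highest or lowest line to its neighbour. HSD17B7, a sterol reductase, was 9.53 in HOXD9 clone c beside 9.12 to 9.17 in the other HOXD9 lines. INSIG2 was 6.68 in HOXD9 clone c beside 7.20 to 7.25. SREBF1 was 4.87 in HOXD13 clone c beside 5.23 to 5.31. All 3 are clones c, which stood apart for many genes, and chance alone sets apart about 5% of groups by this measure.

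The limma test of the HOXD13 effect minus the HOXD9 effect called PMVK (-1.06), FDPS (-0.82) and SREBF2 (-0.75). The SREBF2 call was lost in 11 of the 14 fits that left out 1 array and in 4 of 9 other settings. Each factor came with its own tag, so factor and tag set cannot be told apart.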

How the results depend on the processing

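The median effect over the members was 0.17 for HOXD9, 0.01 for HOXD13 and -0.10 for the difference. With 1 array left out it ranged from 0.051 to 0.22, from -0.027 to 0.096 and from -0.19 to 0.029, so the last 2 crossed 0; with the ACTB covariate it was 0.025, -0.00059 and 0.055. Counts of calls depended on the setting. For HOXD9 against HA vector, 1 gene was called; there were 6 with no filter, 2 with the mean of probe sets, 50 with the ACTB difference as a covariate, and 0 with the HA arrays alone or without HOXD9 clones a and c. For HOXD13 against V5 vector, 1101 genes were called; array weights gave 1772 (688 higher, 1084 lower), the ACTB covariate 2596, and the V5 arrays without HOXD13 clone c 6117. Members called for HOXD13 were 2 of 25, beside 1101 of 10349 genes. With arrays centred there was 1 (PMVK). Array weights gave 4 (SC5D and DHCR7 rising as well), beside the 1772 genes. The ACTB covariate gave 4 (DHCR7 rising and SREBF2 falling as well), beside the 2596. The V5 arrays without clone c gave 16 of 25 members, beside 6117 of 10349 genes. For the difference of effects, 997 genes and 3 members were called. The ACTB covariate gave 2025 genes. Array weights gave 5 members, a count from another setting that is not to be set beside the 2025.

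With a replicate block for the label shared by the tag sets, 197 genes and 0 members were called for the difference; the adjusted p was 0.0572 for PMVK, 0.063 for FDPS and 0.198 for SREBF2. Arrays of a shared label had deviations correlated between -0.62 and 0.04, and 0 of 14 arrays correlated best with their own label, so the labels did not pair the arrays.

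Leaving out 1 array at a time gave 0 to 1100 genes and 0 to 5 members for HOXD9, 303 to 3701 genes and 0 to 10 members for HOXD13, and 384 to 2299 genes and 2 to 7 members for the difference.

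Some effects near 0 changed sign; the cause was not tested. SC5D for HOXD9 ranged from -0.33 to 0.021 with 1 array left out and was 0.012 without clones a and c, where MSMO1 was 0.084 and SREBF1 was -0.026. ACACA for HOXD13 was 0.088 with the mean of probe sets. For HOXD13 with 1 array left out, TM7SF2 ranged from -0.14 to 0.16 (0.16 also with the V5 arrays without clone c), HMGCS1 from -0.012 to 0.069 and SCAP from -0.022 to 0.41. The difference of effects ranged from -0.30 to 0.029 for EBP and from -0.28 to 0.15 for SCAP, which was 0.055 with the ACTB covariate. No depth applies to arrays; MVD, at the floor, gave no reading.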

Other observations

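Spearman's coefficient between a line's shift and the length of the gene was 0.02, -0.13, -0.48 and 0.15 over 25 members in HOXD9 mix, a, b and c, beside -0.37, -0.24, -0.32 and -0.34 over all genes. In HOXD13 it was -0.19, -0.05, -0.0031 and -0.19, beside -0.15, -0.21, -0.25 and 0.27. These coefficients are across genes, which share arrays and are not independent, and are given as a description.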
